A study of Homo sapiens with 4 samples.

Results

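The genes described here encode nucleolar factors that assemble ribosomes, whose transcripts were measured in U2OS, an osteosarcoma line of human origin. They were selected by gene symbol, from families named UTP, NOP, NOC, RRP, RPF, NOL, GNL, BOP, TSR and IMP and from single names such as WDR12, LTV1, NOB1, NCL and FBL, with protein-coding genes kept. Where a gene had more than 1 probe set, its probe set was chosen by the highest mean over all 4 arrays, without regard to the siRNA. The rule found 46 of the 14884 named genes, and 44 of these were bright enough to be tested. The tested cells received siRNA against BRPF3, a bromodomain protein that holds together complexes of the histone acetyltransferase KAT7, and the others received a scramble control siRNA. Both siRNAs were used at 50 nM with a lipid carrier, RNA was taken at 48 hours, and each group held 2 arrays. No probe set is named for BRPF3 here, so the depletion was not checked, and with 1 control and no second BRPF3 siRNA described, depletion and side effects of the siRNA cannot be told apart. The family was proposed with earlier results of these arrays in view, so a shared direction among its members is not independent evidence.

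Ribosomes are put together around ribosomal RNA that RNA polymerase I transcribes in the nucleolus. The small subunit processome, built around the U3 small nucleolar RNA, folds and cuts the part that becomes the 40S subunit, while a separate chain of factors matures the 60S precursor. Small nucleolar ribonucleoproteins of the box C/D and box H/ACA classes modify the RNA. Proliferating cells keep these factors at high levels, and MYC is a known activator of many of their genes.

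After BRPF3 siRNA, transcripts of 16 of the 44 tested members fell and 0 rose (limma, Benjamini-Hochberg adjusted p under 0.05 over all 10696 tested genes). At an unadjusted p under 0.05, 23 were lower and 0 higher, against 19.8% of all tested genes lower and 14.8% higher. The fallen ones make up 36.4% of the members. Over all tested genes 9.44% fell and 6.32% rose. The 16 were NOC3L, NSA2, RPF1, NOL6, RRP15, NOLC1, WDR12, RPF2, NOP16, NOL8, RRP36, WDR75, RRP12, NOL11, LTV1 and WDR43. Their log2 differences ran from -0.89 for NOC3L to -0.33 for WDR43, that is 46.1% to 20.4% less transcript, measured against the rest of the array. The largest and smallest adjusted p among them were 0.0417 and 0.00756. Members differed by a median of -0.21 on the log2 scale, against -0.03 for all tested genes, and 39 of the 44 differences (88.6%) were below 0, against 55.1% over all tested genes. Both BRPF3 siRNA arrays lay below both control siRNA arrays for 36 members (81.8%), against 35.9% of all tested genes. Members are bright, which eases detection: 43 of them reached the 75th percentile of all probe sets, a log2 value of 6.43. Among the 6407 genes at or above that bound, 11.8% fell and 7.02% rose in the same fit, against 16 (37.2%) and 0 of the 43 members. Levels above the bound were not matched between members and these genes. All 16 calls were lost when either control array was left out, as were all calls in the table. Without BRPF3 siRNA replicate 1 or 2, 6 and 8 of them were kept, and under quantile normalization 9. In a population of cells, less of a transcript per cell and fewer cells that make it cannot be told apart.

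**Figure D1:**
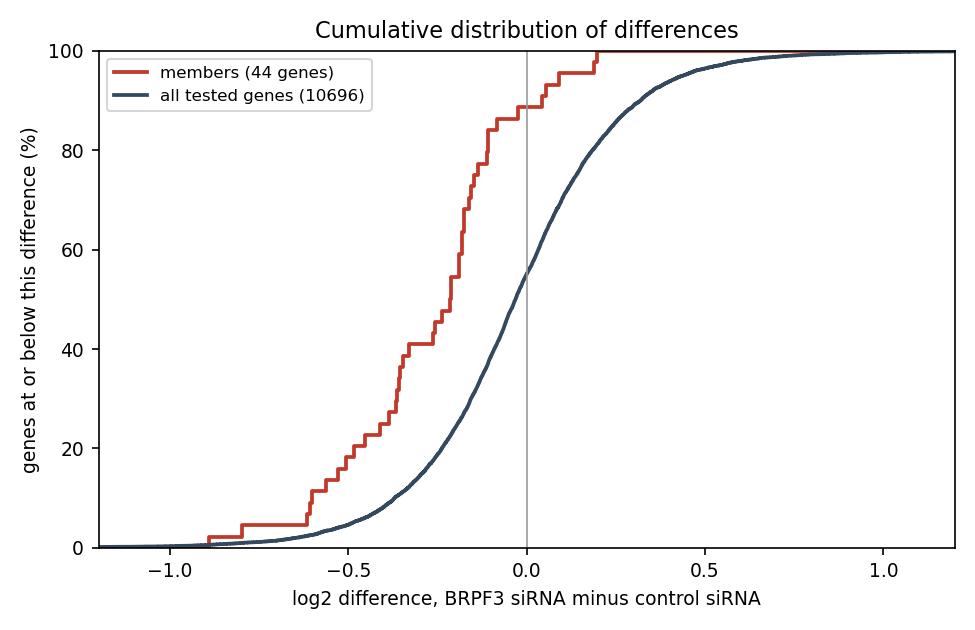
Cumulative share of genes (y axis, %) at or below each log2 difference, BRPF3 siRNA minus control siRNA (x axis), for the 44 tested members (red) and all 10696 tested genes (dark). The curve of the members lies to the left, with medians of -0.21 and -0.03.

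Between the arrays of 1 group, the tested members differed with an SD of 0.13 on the log2 scale for BRPF3 siRNA and 0.12 for control siRNA. The median of the array over all probe sets was 4.60 on each of the 4 arrays. Of the listed markers of mesenchymal or bone sarcoma cells, VIM, RUNX2 and CD44 were named and lay above the intensity bound of 4.59. COL1A1, COL1A2 and SPARC had no named probe set. Of 13 listed markers of epithelial cells, leukocytes, endothelial cells and hepatocytes 8 were named, and 4 of these, EPCAM, KRT20, CLDN4 and APOA1, lay above the bound. The 8 mean levels ran from 3.11 to 8.18 for BRPF3 siRNA and from 3.46 to 7.92 for control siRNA on the log2 scale. Over all 4 arrays VIM averaged 10.42, RUNX2 6.39 and CD44 6.96, against 8.05 for EPCAM, 6.82 for CLDN4, 5.11 for APOA1 and 4.69 for KRT20. Lying above the bound thus did not separate the cell types. Of the 3 epithelial markers among them KRT20 rose by 0.86 (adjusted p = 0.00946, limma). EPCAM differed by 0.27 (adjusted p = 0.0754) and CLDN4 by -0.53 (adjusted p = 0.0690), and neither passed. The part of other cell types in the members' differences was not tested.

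Promoter windows show a feature that the selection did not use. RefSeq windows of GRCh38.p14, from 250 bases before the annotated start of a gene to 50 bases after, were matched by symbol for 38 of the 46 members, 33 of them with a role in assembly. The E-box CACGTG, which MYC and related factors bind and which reads the same on both strands, stood in 12 of these 33 windows (36.4%). It stood in 9.89% of the 7778 windows of tested protein-coding genes and in 7.26% of all 35116 windows of that length. For members and tested genes only the first listed window of each symbol was used. The 35116 were taken without that choice and without a filter on gene class, so they are a less like set. The ETS core CCGGAAG, searched on both strands, stood in 15 of the 33 windows (45.5%), against 18.0% of tested protein-coding genes and 10.3% of all windows. A YY1 core, AAGATGGC, was found in 2 of the 33 (6.06%), against 5.09% of tested protein-coding genes. CCAAT was found in 11 (33.3%), against 36.1%. None of the 4 motifs contains another, and each window was counted once per motif. CACGTG and CCGGAAG hold the base pair step CG, and AAGATGGC and CCAAT do not. The windows of members and of tested genes were not matched for base composition or transcript level. The E-box stood in 5 of the 13 windows of fallen members, against 7 of the 20 windows of assembly factors that did not pass. The ETS core stood in 7 of the 13, against 8 of the 20. These differences were not tested. Of the 802 windows of all protein-coding genes that fell, 12.0% held the E-box and 25.4% the ETS core. A match is a match of letters and was not tested for binding.

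The windows of the 4 members that fell most are shown beside WDR43, which fell with an E-box near its start, and FBL, which holds an E-box and did not pass the test. Each runs from 150 bases before the start to 30 after, 5′ to 3′ on the strand of the gene, with CACGTG and CCGGAAG (or its reverse complement) in capitals.
NOC3L (chr10:94362910-94363089, minus strand): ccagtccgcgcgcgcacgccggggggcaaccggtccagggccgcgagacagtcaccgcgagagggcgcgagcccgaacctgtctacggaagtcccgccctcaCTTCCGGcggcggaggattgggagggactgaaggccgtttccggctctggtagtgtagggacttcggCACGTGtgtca
NSA2 (chr5:74767099-74767278, plus strand): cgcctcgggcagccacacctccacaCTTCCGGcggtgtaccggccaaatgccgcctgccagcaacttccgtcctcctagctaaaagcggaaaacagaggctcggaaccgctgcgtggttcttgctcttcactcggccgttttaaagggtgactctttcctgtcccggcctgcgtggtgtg
RPF1 (chr1:84479116-84479295, plus strand): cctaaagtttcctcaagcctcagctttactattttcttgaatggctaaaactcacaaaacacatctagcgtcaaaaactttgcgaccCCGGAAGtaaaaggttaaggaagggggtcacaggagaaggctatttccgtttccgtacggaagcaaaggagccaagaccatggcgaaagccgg
NOL6 (chr9:33473895-33474074, minus strand): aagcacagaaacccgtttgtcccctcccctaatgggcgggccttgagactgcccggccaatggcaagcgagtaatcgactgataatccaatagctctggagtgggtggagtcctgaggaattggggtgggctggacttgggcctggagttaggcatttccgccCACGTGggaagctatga
WDR43 (chr2:28894517-28894696, plus strand): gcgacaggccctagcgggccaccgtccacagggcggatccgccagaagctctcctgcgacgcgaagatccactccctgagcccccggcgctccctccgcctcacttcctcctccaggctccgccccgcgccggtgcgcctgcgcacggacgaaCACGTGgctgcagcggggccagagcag
FBL (chr19:39846350-39846529, minus strand): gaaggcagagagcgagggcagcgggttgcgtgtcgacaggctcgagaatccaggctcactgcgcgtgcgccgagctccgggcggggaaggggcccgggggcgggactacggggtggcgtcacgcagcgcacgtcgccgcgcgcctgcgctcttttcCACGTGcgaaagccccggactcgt

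In these lines NOC3L carries both motifs, NSA2 and RPF1 the ETS core alone, and NOL6, WDR43 and FBL the E-box alone within the stretch printed. The E-box begins at base 4 of the transcript in WDR43, 7 in FBL, 14 in NOL6 and 20 in NOC3L. The annotated start of the window used counts as base 1. NOL8 and LTV1 were the other fallen members with an E-box.

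The members that fell most, NOC3L, NSA2 and RPF1, are factors of the 60S subunit. As a group the 60S factors did not have the lowest median difference. It was -0.34 in the small subunit processome and -0.30 in factors of late 40S maturation and export. Of 19 tested members with the 60S role 8 fell, 0 rose and 11 did not pass, with a median difference of -0.21. Over all tested genes 9.44% fell and 6.32% rose. NOC3L, which travels with early 60S precursors in yeast and also has a part in replication there, had log2 values of 8.34 and 8.34 on the BRPF3 siRNA arrays, against 9.22 and 9.24 on the control arrays. The groups lay far apart and the arrays of each group nearly coincided, with a difference of -0.89 ± 0.08 (± is the moderated SE of limma here and hereafter, with 2 arrays in each group, adjusted p = 0.00756). NSA2, a component of 60S precursors in yeast, read 9.56 and 9.54 after BRPF3 siRNA, against 10.35 and 10.35 after control siRNA. It fell by 0.80 ± 0.08 (adjusted p = 0.00878), again without overlap. RefSeq lists 7 pseudogenes named for NSA2, so part of its signal may come from other transcripts.

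RPF1 and RPF2 belong to the same protein family and act in 60S assembly, RPF2 with the 5S ribonucleoprotein. RPF1 gave 8.64 and 8.74 after BRPF3 siRNA, against 9.31 and 9.30 after control siRNA, a fall of 0.62 ± 0.08 (adjusted p = 0.0145). RPF2 gave 9.37 and 9.57, against 10.01 and 9.95 in controls, a fall of 0.51 ± 0.10 (adjusted p = 0.0278). In both genes the second BRPF3 siRNA array was the higher one, and both arrays stayed below the controls. RRP15, another factor of 60S precursors, read 7.14 and 7.14 on the BRPF3 siRNA arrays, against 7.79 and 7.69 on the control arrays, and fell by 0.60 ± 0.08 (adjusted p = 0.0148). NOP16, known from 60S precursors in yeast, read 7.89 and 7.82 after BRPF3 siRNA, against 8.34 and 8.34 after control siRNA (-0.49 ± 0.08, adjusted p = 0.0198). NOL8, a nucleolar RNA-binding protein, read 6.96 and 7.09 after BRPF3 siRNA, against 7.37 and 7.58 after control siRNA (-0.45 ± 0.10, adjusted p = 0.0415). Its control arrays were further apart than those of the other fallen members, and its call was lost under quantile and cyclic loess normalization.

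WDR12, BOP1 and PES1 form the PeBoW complex, which is needed to process the RNA of the 60S subunit. WDR12 had 8.20 and 8.36 after BRPF3 siRNA, against 8.78 and 8.85 after control siRNA, and fell by 0.53 ± 0.09 (adjusted p = 0.0225). BOP1 had 8.87 and 8.85, against 9.06 and 9.08 in controls. Its arrays did not overlap, yet the difference of -0.21 ± 0.08 did not pass (adjusted p = 0.112, 95% interval -0.40 to -0.02). The second, dimmer probe set of BOP1 differed by -0.34. PES1 was not analysed here, so the complex was seen in part.

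The other tested 60S factors did not pass. NIP7, a factor of 60S precursors in yeast, differed by -0.26 ± 0.08 (adjusted p = 0.0943). The GTPases GNL2 (-0.18 ± 0.08) and GNL3L (-0.16 ± 0.11) and the RNA methyltransferase NOP2 (-0.15 ± 0.08) had differences below 0. NOL12 (-0.14), NOC2L (-0.11) and RRP1 (-0.11) had smaller ones. NOC2L was the dimmest tested member, with 5.46 and 4.98 after BRPF3 siRNA, against 5.43 and 5.24 after control siRNA, and its arrays overlapped. NOP53, which brings the RNA exosome to the 60S precursor, differed by -0.02 ± 0.08, with a 95% interval of -0.21 to 0.16. RRP1B (0.04 ± 0.08) and NOL9 (0.05 ± 0.08), a polynucleotide kinase acting on spacer RNA, lay above 0.

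**Figure D2:**
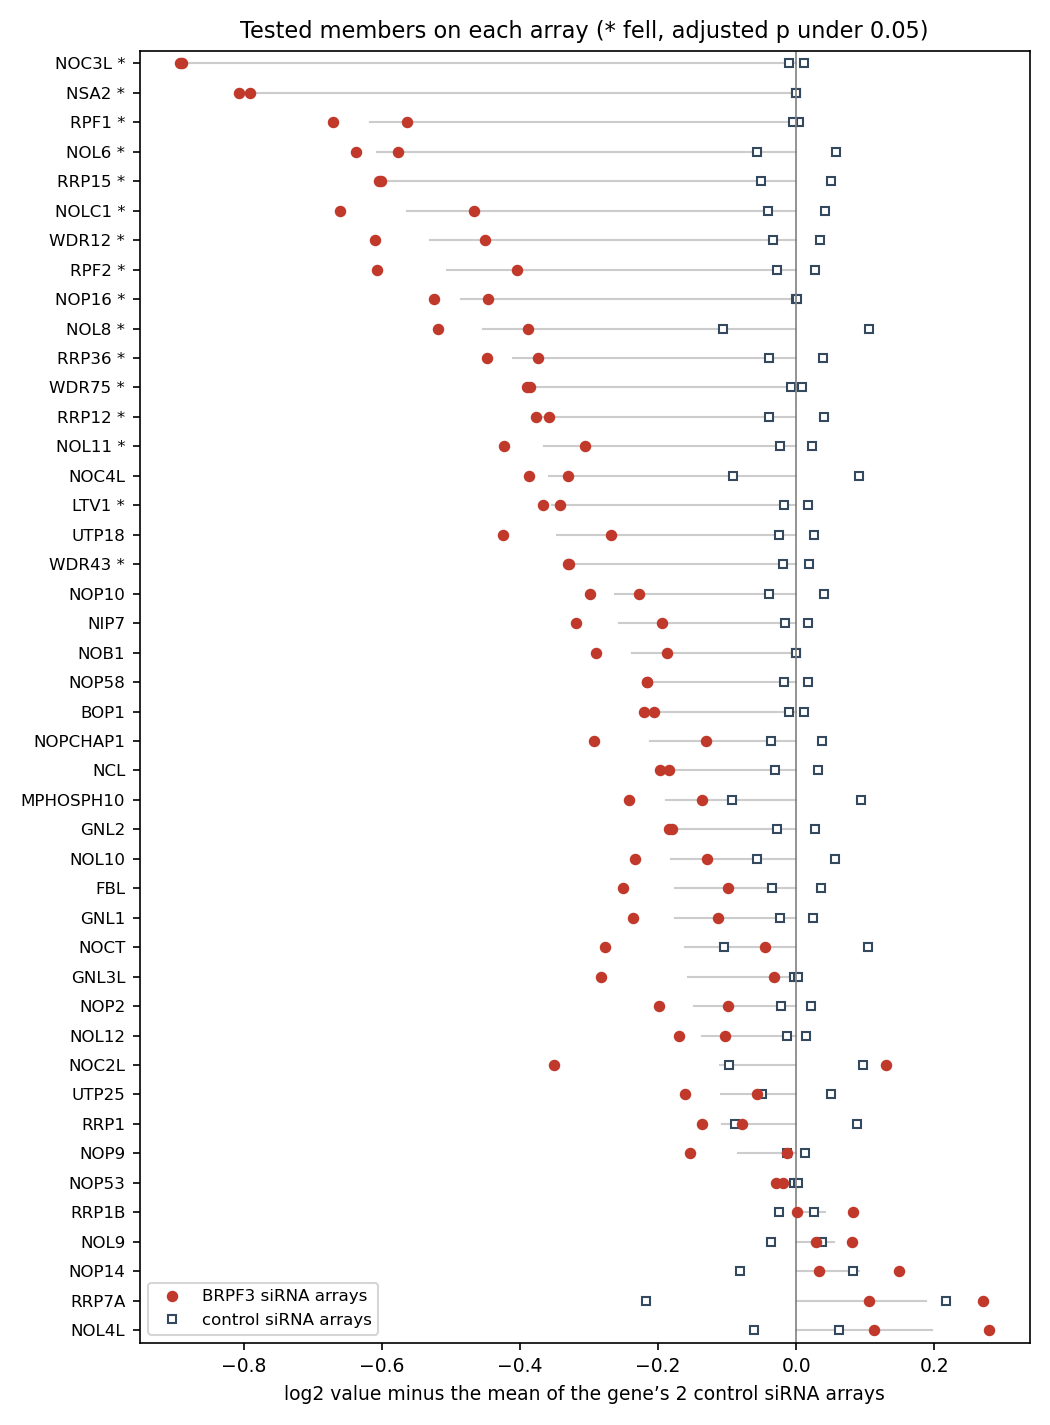
Each of the 44 tested members (rows, ordered by difference) on each array. The x axis gives the log2 value minus the mean of the gene's 2 control siRNA arrays, with filled circles for BRPF3 siRNA arrays, open squares for control siRNA arrays and a grey line from 0 to the mean difference. Asterisks mark the 16 members that fell, from -0.89 for NOC3L to -0.33 for WDR43.

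In the small subunit processome, falls lay in more than 1 of its subcomplexes with the values as deposited. Of 12 tested members 5 fell, 0 rose and 7 did not pass, with a median of -0.34. Over all tested genes 9.44% fell and 6.32% rose. NOL6, the human counterpart of yeast Utp22, had 8.80 and 8.74 after BRPF3 siRNA, against 9.44 and 9.32 after control siRNA, a fall of 0.61 ± 0.08 (adjusted p = 0.0153). RRP36, an early factor of this particle in yeast, had 9.74 and 9.67, against 10.15 and 10.07 in controls (-0.41 ± 0.08, adjusted p = 0.0304), a call lost under both other normalizations tried, quantile and cyclic loess. WDR43, WDR75 and NOL11 belong to the subcomplex that also takes part in transcription of ribosomal RNA. WDR75 read 10.52 and 10.51 after BRPF3 siRNA, against 10.91 and 10.89 after control siRNA (-0.39 ± 0.08, adjusted p = 0.0290). NOL11 read 10.71 and 10.83, against 11.16 and 11.11 in controls (-0.36 ± 0.08, adjusted p = 0.0415). WDR43 read 9.96 and 9.97, against 10.28 and 10.31 in controls (-0.33 ± 0.08, adjusted p = 0.0417). All 3 had separate groups, and all 3 calls were lost under these normalizations as well. NOL6 was then the only processome member still called.

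A pair of processome genes missed the threshold narrowly. UTP18, of the subcomplex UtpB, differed by -0.35 ± 0.09 (adjusted p = 0.0539), and NOC4L, a partner of NOP14 in yeast, by -0.36 ± 0.09 (adjusted p = 0.0555). Their differences were as large as that of WDR43, and the spread between their arrays was wider. MPHOSPH10, which works with IMP3 and IMP4, differed by -0.19 ± 0.10, NOL10 by -0.18 ± 0.09 and UTP25 by -0.11 ± 0.09. NOP14 (0.09 ± 0.10) and RRP7A (0.19 ± 0.16) lay above 0 with overlapping arrays. The control arrays of RRP7A read 7.76 and 8.19, a wider gap than in any other tested member.

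Factors that finish and export the 40S subunit gave 2 falls among 4 tested members, with 0 risen. Over all tested genes 9.44% fell and 6.32% rose, and 4 members give a coarse share. RRP12, an export factor, had 9.46 and 9.48 after BRPF3 siRNA, against 9.79 and 9.87 after control siRNA (-0.37 ± 0.08, adjusted p = 0.0359). LTV1, which leaves the 40S precursor late in its maturation, had 9.66 and 9.68, against 10.04 and 10.01 in controls (-0.35 ± 0.08, adjusted p = 0.0361). Both calls were lost under quantile and cyclic loess normalization, with adjusted p-values of 0.0609 to 0.0685, which left 0 of these 4 members called. NOB1, the nuclease that makes the final cut of small subunit RNA, differed by -0.24 ± 0.08 and did not pass (adjusted p = 0.102). NOP9, which restrains NOB1 in yeast, differed by -0.08 ± 0.09.

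The core proteins of small nucleolar ribonucleoproteins did not pass. FBL, the methyltransferase fibrillarin of box C/D particles, read 10.96 and 10.81 after BRPF3 siRNA, against 11.09 and 11.02 after control siRNA (-0.18 ± 0.09, adjusted p = 0.229). Its box C/D partner NOP58 read 11.29 and 11.29, against 11.49 and 11.53 in controls (-0.22 ± 0.08, adjusted p = 0.109). NOP10, a core protein of box H/ACA particles, differed by -0.26 ± 0.08 (adjusted p = 0.0830). The arrays of all 3 genes did not overlap, and their differences were smaller than those of the 16 fallen members. Among scaffold proteins and chaperones, NOLC1, the chaperone of both particle classes also called Nopp140, had 9.34 and 9.53 after BRPF3 siRNA, against 10.04 and 9.96 after control siRNA. It fell by 0.56 ± 0.10 (adjusted p = 0.0230). The abundant nucleolar protein nucleolin, NCL, differed by -0.19 ± 0.08 (adjusted p = 0.148), and NOPCHAP1, a chaperone factor for NOP58, by -0.21 ± 0.09 (adjusted p = 0.167).

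The symbol rule also took 5 genes whose roles lie elsewhere or are not settled. GNLY encodes granulysin, a toxin of killer lymphocytes, and NOL4 is a nucleolar protein by name. Both lay under the intensity bound and were not tested, with GNLY at 4.82 and 4.27 after BRPF3 siRNA, against 4.56 and 3.87 after control siRNA, and NOL4 at 4.54 and 4.25, against 4.38 and 4.28. NOCT, the circadian protein nocturnin, differed by -0.16 ± 0.12, the GTPase GNL1 by -0.17 ± 0.09 and NOL4L by 0.20 ± 0.10, and none of these passed. Without these 5 genes, 16 of 41 tested assembly factors fell (39.0%), against 9.44% of all tested genes. Their median difference was -0.24. GNL1 has 8 probe sets, whose differences ran from -0.18 to -0.08, and the dim second probe set of NOL10 differed by -0.05.

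RefSeq holds 70 protein-coding genes that match the symbol rule, and 24 of them have no probe set named here. NPM1, NOP56, DKC1, PES1, GNL3, UTP20, BMS1, TSR1, IMP3 and IMP4 are among these and were not analysed here. Of the 44 tested members, 14 have at least 1 pseudogene named for them in RefSeq, among them 7 of the 16 that fell (NSA2, NOLC1, WDR12, RPF2, NOL8, NOL11 and LTV1). Which transcripts their probes detect was not tested.

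Genes of the same pathway outside the symbol rule also held falls and no rise. Of 89 such tested genes 30 fell (33.7%) and 0 rose in limma's test, against 9.44% and 6.32% of all tested genes. Their median difference was -0.28. At an unadjusted p under 0.05, 56 were lower and 0 higher, against the 19.8% and 14.8% of all tested genes given above. The count of falls was 16 under quantile normalization, 18 under cyclic loess, 6 and 9 without BRPF3 siRNA replicate 1 and 2, and 0 without either control array. Of all tested genes, 6.71% fell under quantile and 6.88% under cyclic loess normalization. Among 30 other 40S factors 10 fell (33.3%) with the values as deposited. FCF1, a nuclease-like factor of the processome, fell by 0.50 ± 0.08, WDR3, of the subcomplex UtpB, by 0.62 ± 0.11 and the RNA dimethyltransferase DIMT1 by 0.44 ± 0.08. Toward the threshold lay the kinase RIOK2 (-0.37 ± 0.08), the helicase DDX52 (-0.33 ± 0.08) and PNO1 (-0.32 ± 0.08), the partner of NOB1. All 30 of these 40S factors had a difference below 0, as did 55.1% of all tested genes.

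Of 32 other 60S factors 10 fell (31.2%) and 0 rose, against 9.44% and 6.32% of all tested genes. LSG1, the GTPase that releases the export adaptor NMD3 in the cytoplasm, fell by 0.66 ± 0.10, ZNF622 by 0.45 ± 0.08 and NMD3 itself by 0.46 ± 0.09. FTSJ3, an RNA methyltransferase (-0.38 ± 0.09), MRTO4 (-0.41 ± 0.10) and SDAD1 (-0.31 ± 0.08) also fell. Among 8 other proteins of small nucleolar ribonucleoproteins and their assembly 3 fell: the box H/ACA chaperone SHQ1 (-0.60 ± 0.08) and the ATPases RUVBL1 (-0.58 ± 0.08) and RUVBL2 (-0.37 ± 0.09), which also serve other complexes. Of 16 genes of the RNA exosome and of RNA trimming 4 fell (25%), against 9.44% of all tested genes. They were the exonuclease ERI1 (-0.59 ± 0.08), EXOSC9 (-0.45 ± 0.09), the exosome nuclease DIS3 (-0.35 ± 0.08) and the cofactor C1D (-0.44 ± 0.10). Adjusted p-values of the named pathway genes ran from 0.0138 for SHQ1 to 0.0465 for SDAD1.

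RNA polymerase I transcription was covered by only 4 tested genes of 19 listed. Of the 4, 3 fell, against 9.44% of all tested genes, and so short a list gives a coarse share. RRN3, the initiation factor that brings the polymerase to its promoter, had 8.90 and 8.93 after BRPF3 siRNA, against 9.38 and 9.29 after control siRNA (-0.42 ± 0.08, adjusted p = 0.0278). The polymerase subunits POLR1F (-0.58 ± 0.13, adjusted p = 0.0375) and POLR1H (-0.38 ± 0.09, adjusted p = 0.0430) fell as well. The remaining gene differed by 0.03 ± 0.09 and did not pass. Under quantile and under cyclic loess normalization, 2 genes of this list fell. None of the 10 tested genes of the MYC network passed in limma's test, against 9.44% fallen and 6.32% risen over all tested genes. At an unadjusted p under 0.05, 1 was lower and 0 higher, against 19.8% and 14.8% of all tested genes. A list of 10 genes gives coarse shares. With an intensity trend or a filter at the 75th percentile, 1 gene of the network fell. MYC itself read 10.21 and 10.34 after BRPF3 siRNA, against 10.23 and 10.14 after control siRNA, a difference of 0.09 ± 0.09 with overlapping arrays (adjusted p = 0.520).

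Ribosomal protein genes were counted in the same way, beside the 9.44% of all tested genes that fell and the 6.32% that rose. Of 45 tested cytosolic ribosomal protein genes 2 fell (4.44%) and 0 rose, with a median of -0.08. Of 73 mitochondrial ribosomal protein genes 16 fell (21.9%) and 0 rose, with a median of -0.25. Differences were below 0 for 90.4% of the mitochondrial and 71.1% of the cytosolic list, against 88.6% of the members. Both BRPF3 siRNA arrays lay below both controls for 80.8% and 46.7%, against 81.8% of the members. The mitochondrial list thus shared the members' direction. These lists were read from the same 4 arrays, and differences between lists were not tested.

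**Figure D3:**
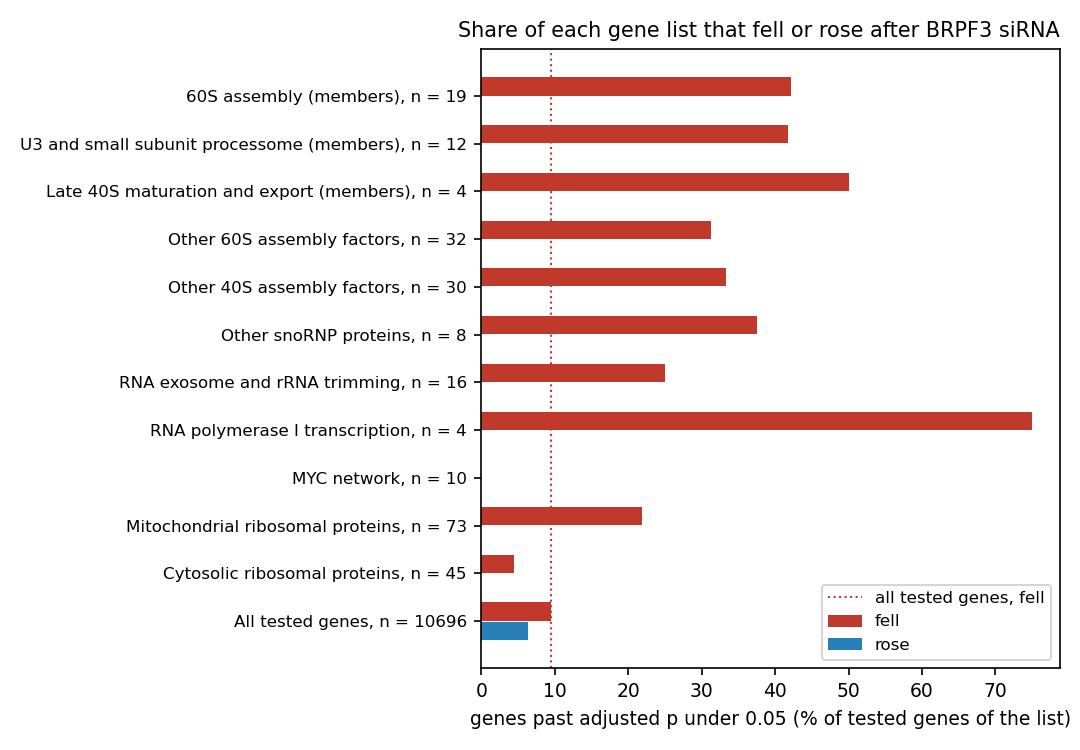
Share of the tested genes of each list (x axis, %) that fell (red) or rose (blue) after BRPF3 siRNA, with the number tested beside each name and a dotted line at the 9.44% of all tested genes that fell. No list but the row of all tested genes has a risen gene, and lists of 4 genes give coarse shares.

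The sign of the shared difference did not depend on the array taken. Set against the mean of the control arrays, the members' median was -0.24 on 1 BRPF3 siRNA array and -0.26 on the other. Quantile and cyclic loess normalization, which draw the array distributions closer together, each left 9 of the 44 members called, all of them among the 16, and 0 risen. The share of all tested genes that fell was then 6.71% and 6.88%. The 9 were NOC3L, NSA2, RPF1, NOL6, RRP15, NOLC1, WDR12, RPF2 and NOP16. The first 5 of these lost their call only without moderation of variances or without a control array.

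**Figure D4:**
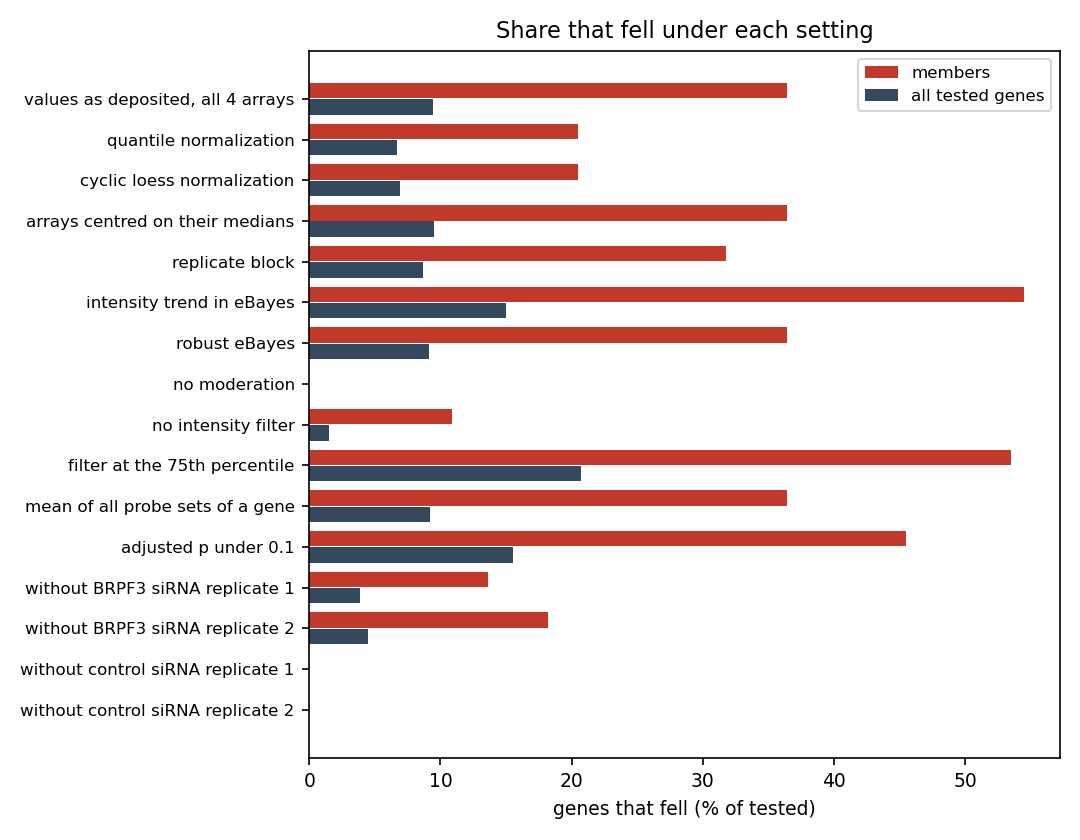
Share of tested genes that fell (x axis, %) among members (red) and all tested genes (dark) under each of 16 settings. Members reach 36.4% with the values as deposited and 20.5% with quantile normalization, and no bar appears where 0 genes of that kind fell.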

How the data were processed

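Total RNA of 4 U2OS samples was hybridised to Affymetrix whole-transcript arrays, 2 after BRPF3 siRNA and 2 after control siRNA, grouped by title. The authors deposited log2 values per probe set, made with RMA per the submitters' processing notes; its version and settings were not given in these sources. RMA draws arrays together, so a shift of all transcripts would largely not be seen, and differences of dim probe sets are compressed. The deposited values were not fully equalised. Over all tested genes the median difference was -0.03 as deposited and 3.6e-05 after quantile normalization, and for members -0.21 and -0.15. The values were used as deposited. The array number limits the precision.

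A platform annotation named 16098 of 53617 probe sets, all with 1 symbol. RefSeq tables of GRCh38.p14 gave gene classes and promoter windows. Genes whose mean was at least 4.59, the median of all probe sets, were tested, 10696 in all. Limma 3.58.1 in R 4.3.3 (lmFit, eBayes) compared the groups, with 2 residual and 3.81 prior degrees of freedom and Benjamini-Hochberg adjustment over all tested genes. The procedure was tested on simulated data. An exact permutation test of 2 against 2 arrays allows no two-sided p under 0.333. The labels call the arrays biological replicates without naming cultures, so the p-values cover only the spread among these 4 arrays, which may be technical.

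Members, role lists and pathway lists were chosen with earlier results of these data known. The naming rule took every member, and the 3 highest and 3 lowest called genes by moderated t of each pathway list, and MYC. Alternatives covered normalization, centring, block, variance model, filter, probe sets, threshold and each array left out. The background of bright genes, the ribosomal protein lists and the promoter motifs were added after the values were seen.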

Additional observations from a re-analysis of the deposited data

How the results depend on the processing

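Without moderation of variances the count of 16 fallen members became 0, and 0 of all tested genes fell. At an unadjusted p under 0.05, 21 members were then lower and 0 higher, against 13.7% and 9.34% of all tested genes. The count became 9 under quantile and 9 under cyclic loess normalization. Without an intensity filter it became 5 (10.9%), against 1.5% of all 14884 genes. It was 0 without control siRNA replicate 1 or 2 (18 and 17 members lower and 0 and 1 higher at an unadjusted p under 0.05, against 13.2% and 13.0% of all tested genes lower), 6 without BRPF3 siRNA replicate 1 and 8 without replicate 2. A group's lone array is there assumed to vary like the other group. It stayed between 14 and 24 under the remaining alternatives, and 0 members rose under any of the 15. The members' median of -0.21 was -0.15 under quantile and -0.15 under cyclic loess normalization, -0.23 with probe sets of a gene averaged, and -0.26 to -0.22 with 1 array left out. The number of all changed genes, 1686, was 2645 with an intensity trend, 409 without a filter, 2877 at an adjusted p under 0.1, 1 without moderation, and 0 to 791 with 1 array left out. No called member reversed its direction. The titles give both groups replicate numbers 1 and 2, and same-numbered arrays deviated together with a correlation of 0.14 over 10696 genes. With 2 pairs this does not show that they are paired. With the replicate block 14 members fell, with WDR43 and NOL11 lost, and 1604 genes changed in all.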
